A study of Mus musculus with 15 samples.

Results

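The 33 genes described here make cholesterol and fatty acids or control their making: 7 enzymes of the mevalonate arm, 11 enzymes of the sterol arm, 5 genes of the SREBP control system, 3 genes of sterol transfer and esterification, and 7 enzymes of fatty acid synthesis. They were chosen by name from an array of 39429 probes, and a gene was read from whichever of its probes had the highest average crypt signal over the 15 arrays. All 33 passed the filter on dim probes, among 23941 features of which 16063 had a gene name.

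RNA came from crypts of the small intestine, the epithelial pits that hold stem cells, their dividing progeny and Paneth cells, of mice aged 6 to 8 weeks, 24 h after treatment. The N1N2 plus Lrp6 group received antibodies against the receptors Notch1 and Notch2 together with Lrp6 antibody at 30 mg/kg. Lrp6 is a surface protein that receives Wnt ligands beside Frizzled receptors. The N1N2 group received the Notch1 and Notch2 antibodies alone, whose dose the labels give as a concentration, 1 mg/mL, and the control group received an IgG antibody. There were 5 arrays in each group, biological replicates per the series design, though the labels do not say whether 1 mouse or several gave the RNA of an array. Crypt RNA carried the red dye and the same mouse reference RNA carried the green dye on all arrays, so each value is a log2 ratio of crypt over reference, and differences between groups are log2 changes of 1 probe.

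Cholesterol is built from acetyl-CoA through mevalonate, isopentenyl units, squalene and lanosterol, and fatty acids are built from acetyl-CoA through malonyl-CoA by fatty acid synthase, then lengthened and desaturated. Both routes answer to the SREBP transcription factors: SCAP carries SREBP from the endoplasmic reticulum to the Golgi, where proteases free the active factor, and the INSIG proteins hold SCAP back when sterols are plentiful. In the intestine, dividing crypt cells need sterols and fatty acids for new membranes, and absorptive cells esterify and export dietary lipid.

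SREBP acts on promoters together with NF-Y and Sp1, so 300-base windows around the gene starts (250 bases before to 50 after, RefSeq, build GRCm38.p6) were searched on both strands for the sterol response element core TCACNCCAC, the NF-Y box CCAAT, the Sp1 box GGGCGG and the palindromic E-box TCACGTGA. Windows were found for 26 of the 33 genes, 34 windows in all, because some genes have several starts. The sterol response element letters stood in 1 of the 34 windows (2.94%), that of Hmgcs1, against 1.24% of 32851 windows of all genes. NF-Y letters stood in 67.6% of the members' windows, against 37.4% of all windows, and Sp1 letters in 76.5%, against 35.7%. The E-box letters stood in none of the members' windows, against 0.974% of all. These matches are letters only, and a window without them shows nothing about the factors. The Hmgcs1 window is printed because it alone held the sterol response element letters, and those of Acss2, Idi1, Acly and Elovl6 because these genes, among those with a window, passed the test below. Capitals mark the letters of the searched motifs on either strand, and the Elovl6 window held none of them.
Hmgcs1 promoter, chr13:119690101-119690400, plus strand: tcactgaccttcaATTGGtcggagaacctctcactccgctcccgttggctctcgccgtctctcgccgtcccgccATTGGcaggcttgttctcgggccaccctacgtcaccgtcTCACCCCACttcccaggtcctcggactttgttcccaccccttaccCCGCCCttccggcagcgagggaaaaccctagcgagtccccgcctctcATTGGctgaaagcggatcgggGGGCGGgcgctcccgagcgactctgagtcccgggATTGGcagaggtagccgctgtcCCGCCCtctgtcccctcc
Acss2 promoter, chr2:155517793-155518092, plus strand: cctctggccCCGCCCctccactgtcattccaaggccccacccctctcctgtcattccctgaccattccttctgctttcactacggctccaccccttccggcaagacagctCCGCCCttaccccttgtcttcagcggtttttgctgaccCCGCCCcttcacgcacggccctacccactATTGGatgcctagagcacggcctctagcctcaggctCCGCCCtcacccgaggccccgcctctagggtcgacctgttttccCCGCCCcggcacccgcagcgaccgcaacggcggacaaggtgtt
Idi1 promoter, chr13:8885356-8885655, plus strand: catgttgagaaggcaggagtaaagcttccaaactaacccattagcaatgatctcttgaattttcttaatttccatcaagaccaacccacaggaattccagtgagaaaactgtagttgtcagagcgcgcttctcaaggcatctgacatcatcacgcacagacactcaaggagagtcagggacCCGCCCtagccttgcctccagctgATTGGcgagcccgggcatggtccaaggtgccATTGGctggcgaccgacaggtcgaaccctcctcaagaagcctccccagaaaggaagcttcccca
Acly promoter, chr11:100527951-100528250, minus strand: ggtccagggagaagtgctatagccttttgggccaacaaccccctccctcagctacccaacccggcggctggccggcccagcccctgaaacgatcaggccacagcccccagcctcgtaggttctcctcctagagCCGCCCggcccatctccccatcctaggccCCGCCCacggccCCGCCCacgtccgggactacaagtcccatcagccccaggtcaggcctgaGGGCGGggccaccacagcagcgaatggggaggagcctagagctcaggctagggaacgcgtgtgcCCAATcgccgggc
Elovl6 promoter, chr3:129532136-129532435, plus strand: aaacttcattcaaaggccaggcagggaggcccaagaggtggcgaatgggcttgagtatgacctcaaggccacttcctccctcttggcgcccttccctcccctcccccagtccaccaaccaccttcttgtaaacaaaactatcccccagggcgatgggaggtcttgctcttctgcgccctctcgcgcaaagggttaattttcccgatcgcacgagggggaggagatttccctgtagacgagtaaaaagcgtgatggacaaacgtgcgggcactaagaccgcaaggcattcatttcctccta

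On every array at least 57.2% of spots were well above background in red: 57.2% to 73.6% on the N1N2 plus Lrp6 arrays (64.8% ± 6.01), 70.1% to 77.2% on the N1N2 arrays (73.9% ± 3.05) and 71.1% to 79.8% on the control arrays (75.8% ± 4.19; SD, n = 5 each). Of 6 slides, the N1N2 plus Lrp6 arrays had slides 5 and 6 to themselves, so for that group slide and treatment cannot be told apart. N1N2 arrays 1 and 2 shared slide 2 with control arrays 4 and 5. Control arrays 1 to 3 had slide 1 to themselves and N1N2 arrays 3 to 5 had slides 3 and 4, so N1N2 against control was partly confounded with slide too. With slide as a fixed block, 109 features and 0 of the 33 genes passed the test below in that comparison, against 2808 and 4 without it. All 13 crypt epithelial markers on the array were well above background in every group. Array 1 of the N1N2 plus Lrp6 group was the lowest of its group for 15 of the 33 genes and the highest for 10, against 34.3% and 23.1% of all features. Array 3 of that group was the highest for 11 and the lowest for 3, against 16.2% and 12.4% of all features. N1N2 array 3 was the highest of its group for 16 of the 31 genes measured on all 5 arrays, against 20.6% of all features, and control array 3 for 18 of 33, against 26.6%.

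Of the 5 groups of genes, only fatty acid synthesis and the mevalonate arm had members that passed the test after Notch1 and Notch2 blockade. Acss2, the enzyme that makes cytosolic acetyl-CoA from acetate, fell by 0.74 on the log2 scale (SE 0.13), 1.67-fold lower than in control crypts. Idi1 and Elovl6 also fell, and Acly rose. In all, 4 of the 33 genes passed at an adjusted p under 0.05 in limma (12.1%), against 11.7% of all features (2808 of 23941), a share near the background. Of the 4, 1 was higher (3.03%, against 6.57% of all features) and 3 were lower (9.09%, against 5.15%). Over all features 56.1% of the calls were higher, and 45.8% were with median centring in place of loess. In whole crypts, fewer cells of a type and less RNA per cell cannot be told apart.

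**Figure D1:**
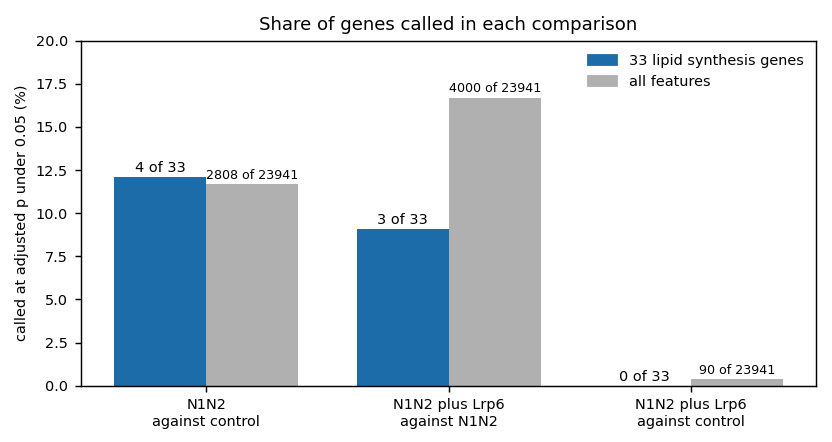
Percentage of genes called by limma at an adjusted p under 0.05 in each comparison (vertical axis, from 0), for the 33 lipid synthesis genes (blue) and for all 23941 features (grey), with the counts above the bars. The bars are close for N1N2 against control (12.1% and 11.7%), and the lipid synthesis bar is the lower one for N1N2 plus Lrp6 against N1N2 (9.09% and 16.7%).

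The Acss2 log2 ratios were 1.87, 1.02, 1.44, 1.62 and 1.51 on the N1N2 plus Lrp6 arrays, 0.90, 1.03, 1.31, 1.18 and 1.09 on the N1N2 arrays and 1.66, 1.88, 1.80, 1.98 and 1.89 on the control arrays. Every N1N2 array lay below every control array, and the N1N2 plus Lrp6 arrays spread across both ranges. The means were 1.49 ± 0.31 in N1N2 plus Lrp6 crypts, 1.10 ± 0.16 in N1N2 crypts and 1.84 ± 0.12 in control crypts (SD, n = 5 each). For N1N2 against control the limma adjusted p was 0.00171, and a second Acss2 probe gave -0.46 (SE 0.09). The call held without any single N1N2 or control array and under 23 of 25 alternative settings, the exceptions being slide as a fixed block, which rests on slide 2 alone (-0.98, adjusted p = 0.0959), and scale normalization (-1.10, adjusted p = 0.0641). N1N2 plus Lrp6 crypts rose above N1N2 crypts by 0.39 (SE 0.13, limma adjusted p = 0.0452), with overlapping arrays. That call was lost in 8 of the 10 fits that left out 1 array (N1N2 plus Lrp6 array 1, 3, 4 or 5, or N1N2 array 1, 2, 4 or 5), with changes from 0.30 to 0.41 and adjusted p from 0.0616 to 0.111. It held under 8 of 24 alternative settings in all, and scale normalization gave 0.64 with an adjusted p of 0.256. Against control, N1N2 plus Lrp6 crypts differed by -0.35 (SE 0.13, adjusted p = 0.271).

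Idi1, which isomerises isopentenyl diphosphate in the mevalonate arm, had log2 ratios of 0.72, -0.14, -0.26, 0.08 and -0.20 on the N1N2 plus Lrp6 arrays, -0.42, -0.56, -0.09, -0.52 and -0.61 on the N1N2 arrays and 0.20, 0.04, -0.10, 0.14 and 0.16 on the control arrays. N1N2 arrays 1, 2, 4 and 5 lay below all control arrays, while N1N2 array 3 lay just above control array 3. It fell by 0.53 in N1N2 crypts against control crypts (SE 0.16, limma adjusted p = 0.0417). The call was lost in 8 of 10 fits without 1 array (N1N2 1, 2, 4 or 5, or control 1, 2, 4 or 5), with changes from -0.54 to -0.49 and adjusted p from 0.0642 to 0.0958. It held under 11 of 25 alternative settings in all, the losses including flagged spots kept (adjusted p = 0.0874), median centring (0.0562), scale normalization (0.194), the scanner's ratio (0.0904), no filter on dim probes (0.0512) and slide as a fixed block (-0.64, adjusted p = 0.334). Compared with N1N2 crypts, Idi1 was higher in N1N2 plus Lrp6 crypts by 0.48 (SE 0.16, adjusted p = 0.048), and array 1, at 0.72, was the highest of its group. That call was lost without N1N2 plus Lrp6 array 1 or 4 or N1N2 array 1, 2, 4 or 5 (changes from 0.31 to 0.49, adjusted p from 0.0706 to 0.107), and the 0.31 was without N1N2 plus Lrp6 array 1. It held under 11 of 24 alternative settings. N1N2 plus Lrp6 and control crypts differed by -0.05 (SE 0.16, adjusted p = 0.928), and by -0.22 without N1N2 plus Lrp6 array 1 (adjusted p = 0.363).

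Elovl6, which lengthens the palmitate made by fatty acid synthase, had the least spread among control arrays of all 33 genes. Its log2 ratios were 2.33, 2.04, 2.34, 2.31 and 2.53 on the N1N2 plus Lrp6 arrays, 2.42, 2.17, 2.48, 2.56 and 2.20 on the N1N2 arrays and 2.69, 2.65, 2.73, 2.71 and 2.70 on the control arrays. All 10 arrays of the treated groups lay below all 5 control arrays. The means were 2.31 ± 0.17 in N1N2 plus Lrp6 crypts, 2.37 ± 0.17 in N1N2 crypts and 2.70 ± 0.03 in control crypts (SD, n = 5 each). Elovl6 fell by 0.33 in N1N2 crypts against control crypts (SE 0.09, limma adjusted p = 0.0305), a call lost without N1N2 array 2 or 5 or without any 1 of the 5 control arrays (changes from -0.34 to -0.28, adjusted p from 0.0521 to 0.0757). It held under 14 of 25 alternative settings in all, and was also lost with flagged spots kept (-0.18, adjusted p = 0.288), median centring (-0.53, 0.072), scale normalization (-0.92, 0.117) and slide as a fixed block (-0.41, 0.292). The change of N1N2 plus Lrp6 crypts against control was -0.39 (SE 0.09, adjusted p = 0.0868), where few features passed at all. That comparison passed under 3 of 24 alternatives: without N1N2 plus Lrp6 array 5 (-0.44, adjusted p = 0.0323), slide as a random block (-0.40, 0.00295) and array weights (-0.35, 0.0415). N1N2 plus Lrp6 and N1N2 crypts differed by -0.06 (95% interval -0.25 to 0.14, adjusted p = 0.765).

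Acly, ATP citrate lyase, is the other source of cytosolic acetyl-CoA and was called in the direction opposite to Acss2. The log2 ratios were 0.11, -0.52, -0.30, -0.45 and -0.58 on the N1N2 plus Lrp6 arrays, -0.42, -0.03, 0.02, 0.03 and 0.10 on the N1N2 arrays and -0.72, -0.42, -0.53, -0.49 and -0.42 on the control arrays. N1N2 array 1 stood below the other N1N2 arrays and close to the highest control arrays, without overlapping them. Acly rose by 0.46 in N1N2 crypts against control crypts (SE 0.13, limma adjusted p = 0.0295), with probe transcript NM_001199296. Its second probe, for NM_134037, gave -0.06 (SE 0.07), so the probes disagreed in sign, and their mean was 0.20 with an adjusted p of 0.177. With slide as a fixed block the change was 0.23 (adjusted p = 0.638), and with median centring it was 0.17 (adjusted p = 0.679). The call was lost without N1N2 array 2, 3, 4 or 5 or control array 1, 2 or 5 (changes from 0.41 to 0.48, adjusted p from 0.0518 to 0.0755), and held under 12 of 25 alternative settings in all. N1N2 plus Lrp6 crypts differed from N1N2 crypts by -0.29 (SE 0.13, adjusted p = 0.14), and without N1N2 plus Lrp6 array 1 by -0.40 (adjusted p = 0.0212) or without N1N2 array 1 by -0.38 (adjusted p = 0.0431).

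**Figure D2:**
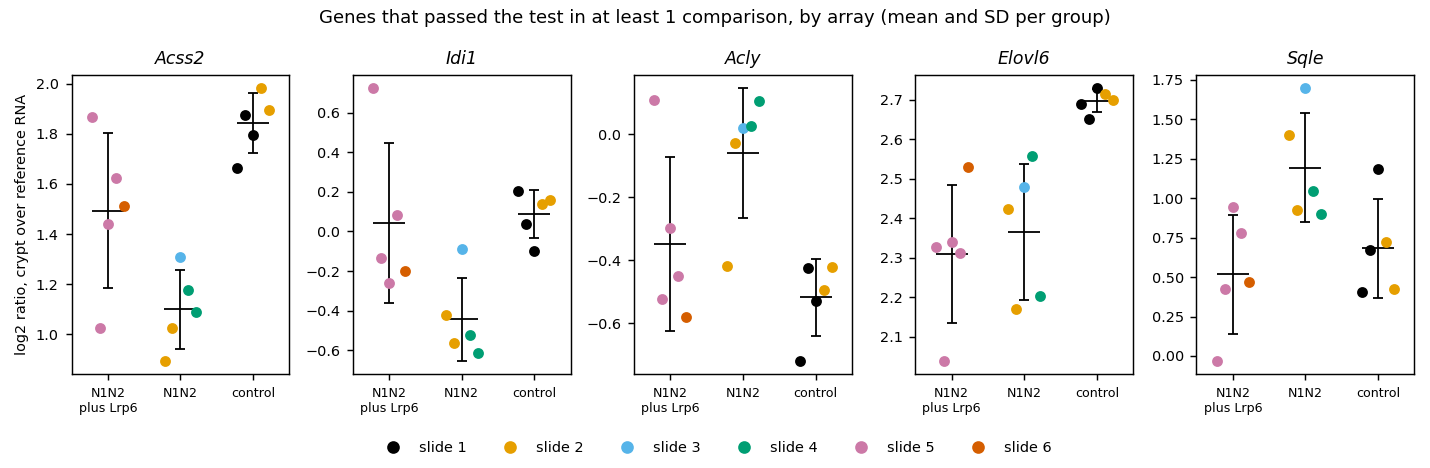
Log2 ratio of crypt over reference RNA (vertical axis, own scale per gene) on each array for the 5 genes that passed in at least 1 comparison, by group, with points coloured by slide and a bar at the group mean with its SD. The 5 N1N2 points of Acss2 lie below the 5 control points, the control points of Elovl6 lie within 2.65 to 2.73, and N1N2 plus Lrp6 array 1 is the highest point of its group for Acss2, Idi1 and Acly and the lowest for Sqle.

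Sqle, squalene epoxidase, the first oxygen-requiring step of the sterol arm, was called when Lrp6 antibody was added to the Notch antibodies. Its log2 ratios were -0.03, 0.42, 0.94, 0.78 and 0.47 on the N1N2 plus Lrp6 arrays, 1.40, 0.92, 1.70, 1.05 and 0.90 on the N1N2 arrays and 0.41, 0.67, 1.18, 0.72 and 0.42 on the control arrays. The N1N2 arrays reached the highest values, but N1N2 plus Lrp6 array 3 and control array 3 lay within their range. Sqle fell by 0.68 in N1N2 plus Lrp6 crypts against N1N2 crypts (SE 0.20, 1.60-fold, limma adjusted p = 0.0289). The call was lost without N1N2 plus Lrp6 array 1 or 5 or N1N2 array 1 or 3 (changes from -0.66 to -0.54, adjusted p from 0.0509 to 0.0737), and with median centring the change was -0.27 (adjusted p = 0.366). It held under 16 of 24 alternative settings in all. N1N2 crypts differed from control crypts by 0.51 (SE 0.20, adjusted p = 0.11). That difference passed under 4 of 25 alternatives, among them without control array 3 (0.64, adjusted p = 0.0468), with flagged spots kept (0.69, 0.0355) and with array weights (0.51, 0.0259). N1N2 plus Lrp6 crypts differed from control crypts by -0.16 (SE 0.20, adjusted p = 0.77), or by -0.03 without N1N2 plus Lrp6 array 1.

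With Sqle lower and Idi1 and Acss2 higher, 3 of the 33 genes passed in N1N2 plus Lrp6 against N1N2 (9.09%), against 16.7% of all features (4000). Those higher were 6.06%, against 9.44% of all features, and the lower one 3.03%, against 7.26%. The share of higher calls over all features was 56.5%, and 77.2% with median centring. None of the 33 had groups that did not overlap, against 10.1% of all features. The opposite signs of Idi1 and Acss2 in this comparison and the one before share the N1N2 arrays and are not independent. Between N1N2 plus Lrp6 and control crypts limma called 0 of the 33, against 0.376% of all features (90), and 5 of the 33 had an unadjusted p under 0.05. The share of all features at that unadjusted threshold was not computed. Counts at it, here and below, are therefore no result about the genes counted. In N1N2 plus Lrp6 against control, groups did not overlap for 1 of the 33, Elovl6 (3.03%, against 2.58% of all features). The 95% intervals lay within 1 log2 unit of 0 for all 33 genes in that comparison and for 31 in each of the other comparisons, the widest reaching 1.29 for Scd2.

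**Figure D3:**
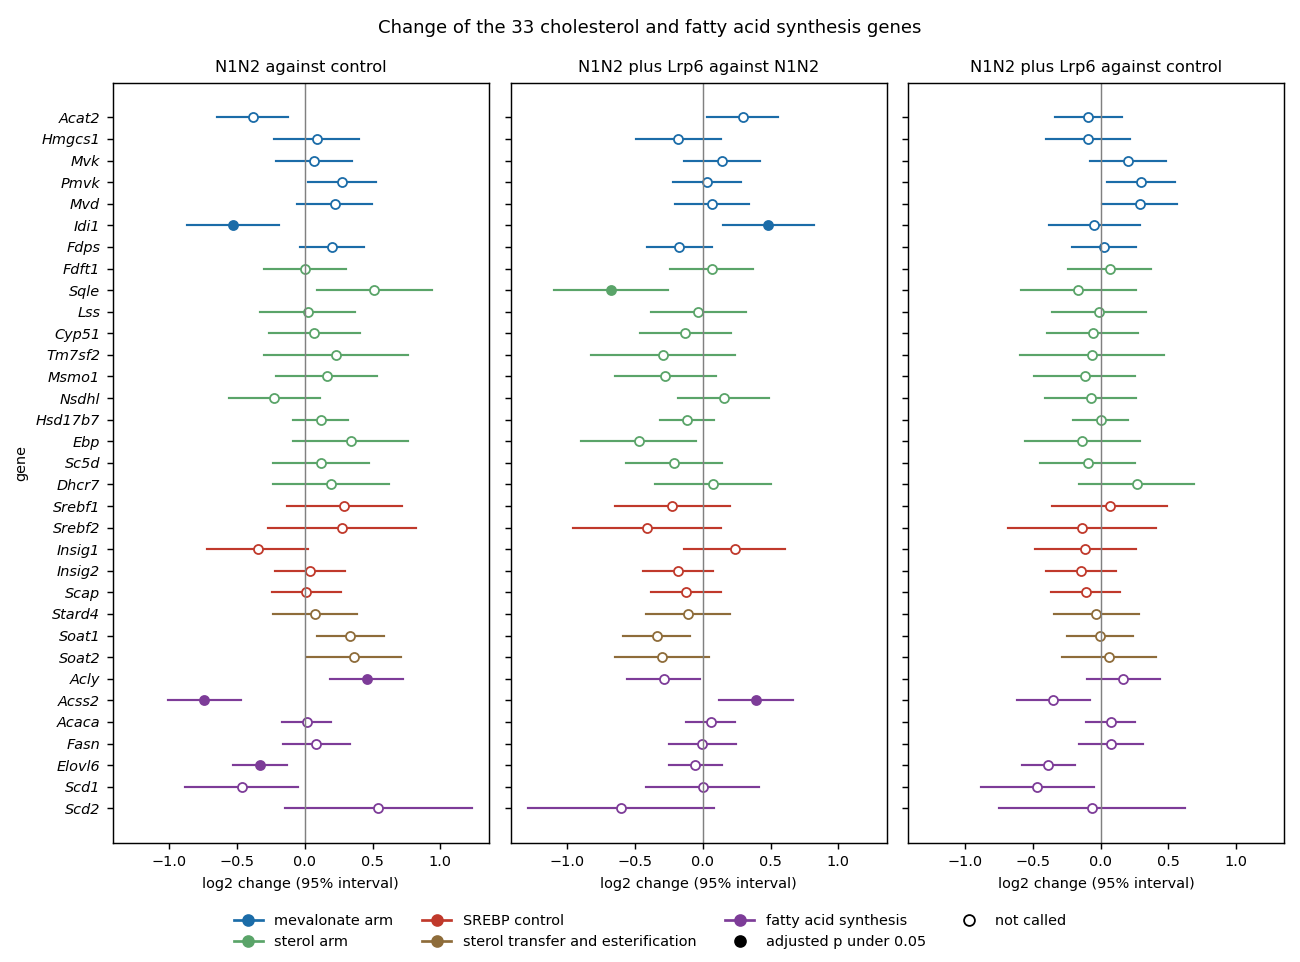
Log2 change of each of the 33 genes (rows, coloured by role) with its 95% interval (horizontal axis) in the 3 comparisons, with filled points where the limma adjusted p was under 0.05. Filled points are Idi1, Acly, Acss2 and Elovl6 in the left panel, Idi1, Sqle and Acss2 in the middle panel and none in the right panel.

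The other enzymes of the mevalonate arm had no call. In N1N2 against control 3 of its 7 genes had an unadjusted p under 0.05, and 1, Idi1, passed the limma test. Acat2, the thiolase that joins acetyl-CoA units, lay lower on every measured N1N2 array than on every control array, with means of -1.12 ± 0.09 in N1N2 crypts (n = 4, since N1N2 array 5 had no value) and -0.74 ± 0.13 in control crypts (n = 5), a change of -0.39 (SE 0.12, adjusted p = 0.0555). It passed under 4 alternatives: the authors' deposited values (adjusted p = 0.0358), only the 2 groups (0.0111), slide as a random block (0.027) and array weights (0.00568). Pmvk, phosphomevalonate kinase, differed from control by 0.30 in N1N2 plus Lrp6 crypts (adjusted p = 0.304) and by 0.27 in N1N2 crypts (adjusted p = 0.154). Mvd, mevalonate diphosphate decarboxylase, differed from control by 0.29 in N1N2 plus Lrp6 crypts (adjusted p = 0.365) and by 0.22 in N1N2 crypts (adjusted p = 0.308). Hmgcs1, HMG-CoA synthase and the holder of the sterol response element letters above, ranged from 0.84 to 1.44 on the N1N2 plus Lrp6 arrays, from 0.76 to 1.62 on the N1N2 arrays and from 0.82 to 1.26 on the control arrays. Its N1N2 against control change was 0.09 (95% interval -0.22 to 0.40), with adjusted p = 0.761. Changes of Mvk, mevalonate kinase, and Fdps, farnesyl diphosphate synthase, lay between -0.17 and 0.21 in the 3 comparisons. A second Mvk probe gave 0.33 (SE 0.12) in N1N2 plus Lrp6 against control and 0.17 (SE 0.12) in each of the other comparisons.

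In the sterol arm 0 of 11 genes passed in N1N2 against control by limma, and 1 had an unadjusted p under 0.05 (Sqle). Of the 11 changes 10 were above 0, against 50.4% of all features, with a median of 0.12. Fdft1 was among the 10 at 0.00, and its second probe gave -0.06. For all 33 genes the sign of the median in that comparison depended on the scaling. It was 0.09, but -0.08 with median centring and -0.06 with scale normalization. Ebp, the sterol isomerase, ranged from 2.10 to 3.52 on the N1N2 plus Lrp6 arrays, from 3.42 to 3.58 on the N1N2 arrays and from 3.03 to 3.48 on the control arrays. Its change in N1N2 plus Lrp6 against N1N2 was -0.47 (SE 0.20, adjusted p = 0.125), and its lowest value was N1N2 plus Lrp6 array 1, without which the change was -0.24 (adjusted p = 0.206). Nsdhl, which takes methyl groups off the sterol ring together with Msmo1 and Hsd17b7, was the gene of the arm with a change below 0 in N1N2 against control, -0.23 (SE 0.16, adjusted p = 0.398). Changes of the other members, the squalene synthase Fdft1, the lanosterol synthase Lss, the demethylase Cyp51, the reductases Tm7sf2 and Dhcr7, Msmo1, Hsd17b7 and the desaturase Sc5d, lay between 0.00 and 0.23 in N1N2 against control. Between N1N2 plus Lrp6 and control crypts no gene of the arm passed by limma, 0 had an unadjusted p under 0.05, and changes lay between -0.16 and 0.27.

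Transcripts of the SREBP control system itself passed the test in no comparison by limma, and 0 of its 5 genes had an unadjusted p under 0.05 in any of them. Srebf1, which encodes the SREBP form tied to fatty acid synthesis, had log2 ratios of 0.41, 1.70, 1.65, 1.60 and 1.58 on the N1N2 plus Lrp6 arrays, 1.52, 1.54, 1.60, 1.51 and 1.89 on the N1N2 arrays and 1.08, 1.44, 1.51, 1.39 and 1.18 on the control arrays. All N1N2 arrays lay above all control arrays, by a small margin, and N1N2 plus Lrp6 array 1 lay far below the rest. The N1N2 against control change was 0.29 (95% interval -0.13 to 0.72, adjusted p = 0.389). N1N2 plus Lrp6 crypts differed from N1N2 crypts by -0.22 with array 1 and by 0.02 without it, and from control crypts by 0.07 with it and 0.31 without it (adjusted p = 0.197).

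Srebf2, which encodes the form tied to cholesterol synthesis, had log2 ratios of -0.34, 0.54, 1.38, 0.48 and 0.72 on the N1N2 plus Lrp6 arrays, 1.27, 0.54, 1.23, 0.58 and 1.21 on the N1N2 arrays and 0.84, 0.42, 1.07, 0.32 and 0.81 on the control arrays. The 3 groups overlapped and the spread within each was wide. Its changes were 0.27 (SE 0.26) in N1N2 against control, where its second probe gave -0.19, and -0.41 (SE 0.26) in N1N2 plus Lrp6 against N1N2, which was -0.18 without N1N2 plus Lrp6 array 1.

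Insig1, itself a target of SREBP, had log2 ratios of 0.30, -0.41, 0.46, 0.05 and 0.64 on the N1N2 plus Lrp6 arrays, -0.16, -0.13, 0.20, 0.25 and -0.29 on the N1N2 arrays and 0.07, 0.36, 0.16, 0.38 and 0.65 on the control arrays. The groups overlapped, with the lowest N1N2 arrays below all control arrays. Its N1N2 against control change was -0.35 (95% interval -0.72 to 0.02, adjusted p = 0.223), and its N1N2 plus Lrp6 against N1N2 change was 0.23 (adjusted p = 0.425).

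Insig2, the form less tied to SREBP, had log2 ratios of -0.34, 0.17, 0.22, 0.31 and 0.23 on the N1N2 plus Lrp6 arrays, 0.46, 0.33, 0.36, 0.09 and 0.27 on the N1N2 arrays and 0.33, 0.29, 0.43, 0.32 and -0.05 on the control arrays. Scap had log2 ratios of 0.22, 0.51, 0.95, 0.96 and 0.61 on the N1N2 plus Lrp6 arrays, 0.64, 0.74, 0.87, 0.73 and 0.87 on the N1N2 arrays and 0.61, 0.84, 0.83, 0.79 and 0.72 on the control arrays. Both genes overlapped between all groups, and N1N2 plus Lrp6 array 1 was the lowest of its group for both. In N1N2 against control the changes were 0.04 for Insig2 (95% interval -0.22 to 0.29) and 0.01 for Scap (95% interval -0.25 to 0.27). A second Insig2 probe gave -0.13 (SE 0.12) there. In N1N2 plus Lrp6 against control the second probe gave -0.29 (SE 0.12) and the first -0.14 (SE 0.12).

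**Figure D4:**
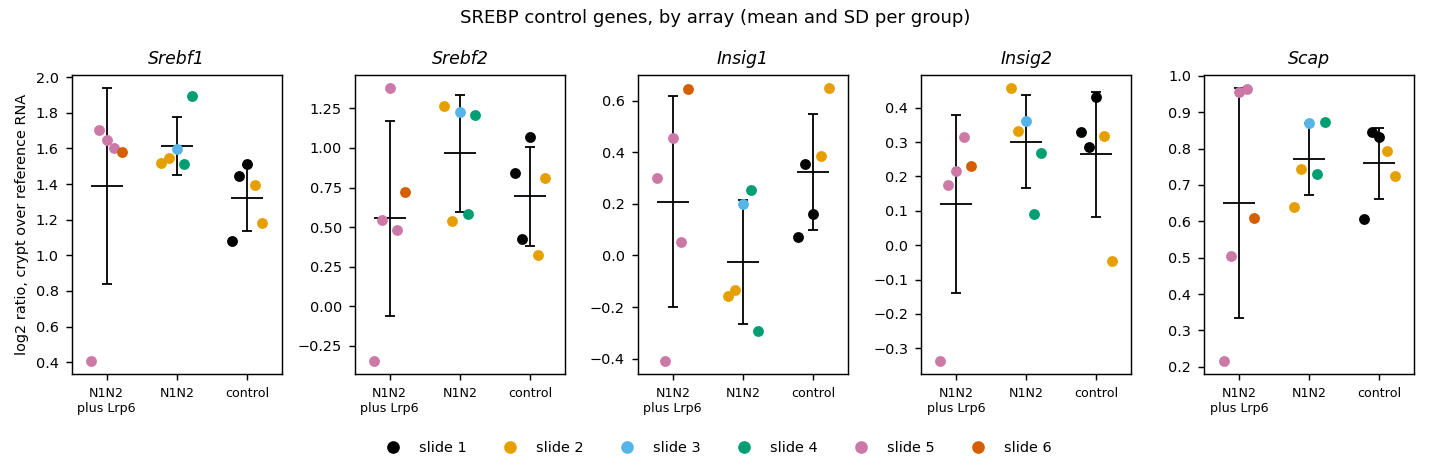
Log2 ratio of crypt over reference RNA (vertical axis, own scale per gene) on each array for the 5 SREBP control genes, by group, with points coloured by slide and a bar at the group mean with its SD. The groups overlap except for Srebf1 in N1N2 against control, and array 1 of the N1N2 plus Lrp6 group is the lowest point for Srebf1, Srebf2, Insig2 and Scap.

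Of sterol transfer and esterification, limma called 0 of 3 genes in N1N2 against control, where 2 had an unadjusted p under 0.05. Soat1, the sterol acyltransferase of most tissues, averaged -1.45 ± 0.21 in N1N2 plus Lrp6 crypts, -1.11 ± 0.17 in N1N2 crypts and -1.44 ± 0.19 in control crypts (SD, n = 5 each). Its changes were 0.34 in N1N2 against control (adjusted p = 0.0726) and -0.34 in N1N2 plus Lrp6 against N1N2 (adjusted p = 0.0555). The second of these passed under 7 of 23 alternatives: without N1N2 plus Lrp6 array 3 (-0.41, adjusted p = 0.0231) or N1N2 array 4 (-0.40, 0.0477), without background subtraction (0.0377), with flagged spots kept (0.0473), median centring (0.0493), the scanner's ratio (-0.88, 0.0281) or slide as a random block (0.00761). Soat2, the acyltransferase of intestine and liver, averaged 4.63 ± 0.35 in N1N2 plus Lrp6 crypts, 4.93 ± 0.25 in N1N2 crypts and 4.57 ± 0.22 in control crypts, a change of 0.36 in N1N2 against control (SE 0.16, adjusted p = 0.173). Stard4, a carrier of cholesterol between membranes, had probes that disagreed: in N1N2 against control the changes were 0.08 and -0.35, and in N1N2 plus Lrp6 against N1N2 -0.11 and 0.32.

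Acaca and Fasn, the core of fatty acid synthesis, passed in no comparison by limma, nor at an unadjusted p under 0.05. Acaca, acetyl-CoA carboxylase, which makes malonyl-CoA, had changes from 0.01 to 0.07 over the 3 comparisons, and its N1N2 against control interval ran from -0.17 to 0.20. Fasn, fatty acid synthase, had a change of 0.08 in N1N2 against control (95% interval -0.17 to 0.33, with N1N2 array 4 without a value). Scd1, a stearoyl-CoA desaturase, averaged -1.48 ± 0.20 in N1N2 plus Lrp6 crypts, -1.48 ± 0.47 in N1N2 crypts and -1.01 ± 0.29 in control crypts (SD, n = 5 each). Its change was -0.47 in N1N2 plus Lrp6 against control (SE 0.20, adjusted p = 0.33) and -0.47 in N1N2 against control (SE 0.20, adjusted p = 0.141), and the second passed without N1N2 array 2 (-0.65, adjusted p = 0.0218). Scd2, a related desaturase, had the widest spread of the 33 genes, from -2.98 to -0.86 on the N1N2 plus Lrp6 arrays, -1.53 to -0.42 on the N1N2 arrays and -2.09 to -1.18 on the control arrays. Its change was 0.54 in N1N2 against control (SE 0.32, adjusted p = 0.312) and -0.60 in N1N2 plus Lrp6 against N1N2 (SE 0.32, adjusted p = 0.239). The -2.98 was on N1N2 plus Lrp6 array 1, without which the second change was -0.26. N1N2 plus Lrp6 and control crypts differed by -0.06 (SE 0.32).

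As a set, 26 of the 33 changes in N1N2 against control were above 0 (78.8%), against 50.4% of all features, with a median of 0.09, against 0.00 over all features. With median centring the members' median was -0.08, against -0.06 over all features. With scale normalization it was -0.06, against -0.01, so its sign depended on the scaling. For N1N2 plus Lrp6 against N1N2, 11 of the 33 were above 0 (33.3%, against 49.8% of all features), with a median of -0.12. That median was 0.08 with median centring, against 0.01 over all features, and 0.04 with scale normalization, against 0.02. For N1N2 plus Lrp6 against control 12 were above 0 (36.4%, against 53.9%), with a median of -0.06, against 0.01 over all features. That median was 0.09 with flagged spots kept, against 0.07 over all features, and 0.07 with array weights, against 0.02. Groups did not overlap for 5 of the 33 in N1N2 against control (15.2%, against 12% of all features), namely Acat2, Srebf1, Acly, Acss2 and Elovl6. The spread within groups was larger for these genes than for most: their median residual SD was 0.25, against 0.17 over all features. Compared with the reference RNA, 17 of the 33 genes were above it on all measured N1N2 plus Lrp6 arrays, 21 on all N1N2 arrays and 19 on all control arrays. Those below it on all measured arrays numbered 5, 6 and 8 in the same order. The shares over all features were not computed, so these counts are no result about the set.

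Neighbouring routes of lipid metabolism, 7 lists with 121 genes tested, had 3 higher and 14 lower calls by limma in N1N2 against control. That is 14% called, against 11.7% of all features, with 2.48% higher, against 6.57%, and 11.6% lower, against 5.15%. Of 24 genes of fatty acid oxidation and ketogenesis 6 were lower and none higher, among them Pparg, a lipid-sensing nuclear receptor (-0.72, adjusted p = 0.00225), Etfa (-0.53) and Etfdh (-0.50), which pass electrons from fatty acid oxidation to the respiratory chain, and the ketone body enzyme Bdh1 (-0.46). Of 10 genes of NADPH supply 2 were lower: the folate enzyme Mthfd1 (-0.87, adjusted p = 0.00121) and G6pdx, which opens the pentose phosphate route (-0.33). Of 20 genes of glycerolipid synthesis the acyltransferase Agpat4 was higher (0.88), while the acyl-CoA ligase Acsl3 (-0.54) and the lipid droplet protein Cidec (-0.39) were lower. Of 16 genes of SREBP processing and turnover the ubiquitin ligases Syvn1 (0.95) and Fbxw7 (0.42) were higher and Thrsp, a lipogenesis regulator, was lower (-0.31). The other lists had 1 lower gene each: the lipoprotein receptor Scarb1 (-0.63) of 18 in sterol uptake and efflux, the desaturase Fads2 (-0.45) of 18 in elongation and desaturation, and Pdss1 (-0.49), which makes the side chain of coenzyme Q, of 15 in isoprenoid branches.

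When N1N2 plus Lrp6 was set against N1N2, 9 of the 121 were higher (7.44%, against 9.44% of all features) and 4 lower (3.31%, against 7.26%), again with the N1N2 arrays shared. The 10.7% called lay below the 16.7% of all features, so these counts are no result about the lists. Mthfd1 (1.13, adjusted p = 0.000418), Pgls of the pentose phosphate route (0.48), Pdss1 (0.54), Bdh1 (0.51), Echs1 (0.50), Pparg (0.47) and Acads (0.33) were higher, the last 4 being the calls among 24 fatty acid oxidation and ketogenesis genes. Mitochondrial fatty acid synthesis genes Mcat (0.41) and Mecr (0.35) were also higher, and the elongation dehydratase Hacd3 was lower (-0.46). Syvn1 (-1.24), the SREBP protease Mbtps1 (-0.52) and the cholesterol exporter Abca1 (-0.76) were lower. Glycerolipid synthesis had 0 of 20 calls by limma, with 8 at an unadjusted p under 0.05, a threshold whose share over all features was not computed. Against control, N1N2 plus Lrp6 crypts had 0 calls among the 121 by limma, 13 had an unadjusted p under 0.05, and the lowest adjusted p was 0.0782.

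Some markers of cell types moved alongside, and their part in the changes above was not tested. Over all features 6.57% were called higher and 5.15% lower in N1N2 against control. In N1N2 plus Lrp6 against N1N2 these shares were 9.44% and 7.26%. The villus enterocyte counts below lay near the shares of lower calls. Goblet cell markers were higher for 8 of 12 in N1N2 against control and lower for 7 of 12 in N1N2 plus Lrp6 against N1N2, and their mean log2 ratio per array ranged from 4.48 to 5.00 in N1N2 plus Lrp6 crypts, 5.31 to 5.66 in N1N2 crypts and 4.26 to 4.48 in control crypts. Cell cycle genes were lower for 14 of 19 and then higher for 16 of 19 in the same comparisons, with means from -1.36 to -0.79 in N1N2 plus Lrp6 crypts, -2.09 to -1.70 in N1N2 crypts and -1.59 to -1.12 in control crypts, and Aurkb was well above background on no array. Enteroendocrine markers were higher for 4 of 14 in N1N2 against control, and 1 was higher and 2 lower in N1N2 plus Lrp6 against N1N2, with means from 4.02 to 4.29 in N1N2 plus Lrp6 crypts, 4.21 to 4.63 in N1N2 crypts and 3.59 to 3.99 in control crypts. Villus enterocyte markers, of the absorptive cells, were lower for 1 of 20 in each of these comparisons, with means from 5.95 to 6.97 in N1N2 plus Lrp6 crypts, 6.39 to 7.08 in N1N2 crypts and 6.35 to 6.69 in control crypts. Immune markers were lower for 2 of 17 in N1N2 against control, with means from 0.82 to 1.10 in N1N2 plus Lrp6 crypts, 0.84 to 1.44 in N1N2 crypts and 1.14 to 1.49 in control crypts. Of 18 stromal, muscle and endothelial markers, Pdgfra passed the filter on dim probes only through the control group. Of the other 17, 2 were lower in N1N2 against control and 7 in N1N2 plus Lrp6 against N1N2. Means of all 18, Pdgfra included, ranged from -3.50 to -2.73 in N1N2 plus Lrp6 crypts, -2.62 to -2.38 in N1N2 crypts and -2.56 to -1.89 in control crypts. Of 9 lung epithelial markers tested, Sftpc and Sftpa1 passed the filter on dim probes only through the N1N2 plus Lrp6 group, and 3 of the other 7 were higher in N1N2 plus Lrp6 against N1N2. The mean of all 9 ranged from 0.37 to 1.14 in N1N2 plus Lrp6 crypts, -0.29 to -0.08 in N1N2 crypts and -0.18 to 0.21 in control crypts. It includes Sftpc and Sftpa1, so part of its difference between groups was fixed by the filter. Sftpc is a surfactant protein gene of alveolar cells, which also make surfactant lipid. It was well above background on 5 N1N2 plus Lrp6 arrays, 3 N1N2 arrays and 3 control arrays. Sftpa1 and Sftpb were well above background on no N1N2 or control array, and Foxj1 on none at all. Ager went the other way, well above background on 2 N1N2 plus Lrp6 arrays, 5 N1N2 arrays and 5 control arrays. Adipocyte markers, some of which are lipid enzymes, were lower for 2 of 11 in N1N2 against control and had 0 of 11 calls by limma in N1N2 plus Lrp6 against N1N2, with 1 at an unadjusted p under 0.05. Their means ranged from 0.11 to 0.64 in N1N2 plus Lrp6 crypts, 0.42 to 0.51 in N1N2 crypts and 0.56 to 0.75 in control crypts. Adipoq and Lep did not pass the filter and were dim in every group. Adipoq was well above background on 0 N1N2 plus Lrp6, 1 N1N2 and 1 control array, and Lep on 0, 0 and 1.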

How the data were processed

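Crypt RNA of 15 samples, 5 in each of 3 groups, was measured on 2-colour Agilent arrays, with crypt RNA in Cy5 (red), a universal mouse reference in Cy3 (green) and no dye swap, per the labels. The scanner files the authors deposited hold, for each dye, a spot's median intensity and that of its surroundings, and a log10 ratio of red over green, read with Feature Extraction 11.0.1.1, per the file headers. A series table of log2 values deposited by the authors was made with R 3.0.0 and limma 3.6.7 per the submitters' processing notes. Its columns had r of at least 0.99998 with the values computed here, slopes from 0.9987 to 1.003 and medians from 0.0144 to 0.0286, so its scale and direction are log2 of crypt over reference.

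Calculations used limma 3.58.1 in R 4.3.3. Spots carrying feature flags or a non-uniform background flag were left out, background was corrected with normexp (offset 50), ratios were normalized by loess, and spots of a probe were averaged. Median intensities were used because the files hold no means. The filter on dim probes kept those whose red signal was well above background on 4 or more of the 5 arrays in any group. The 3 groups entered 1 fit of 15 arrays (lmFit and eBayes), with two-sided p-values adjusted by Benjamini-Hochberg over 23941 features and a threshold of 0.05. No spot was saturated, and the number of arrays limits the precision. Gene names follow RefSeq accessions of GRCm38.p6, and 26581 of the probes had one, 12848 none. The fit was tested on simulated data.

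The 33 genes and all lists were chosen with earlier results of these data known. Values on every array are given for genes that passed in at least 1 comparison and for Srebf1, Srebf2, Insig1, Insig2 and Scap, and of other lists at most the 4 largest calls are named. Alternatives covered background, normalization, filter, probe choice, slide, array weights, the replicate block and single arrays left out.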

Additional observations from a re-analysis of the deposited data

Results flagged for a closer look

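An array far from the other 4 of its group was found for 10 of 97 sets of 5 values (Dixon's gap test at its 95% critical value, 0.71). For 1 set alone, chance gives about 1 in 20. The sets share the same arrays and are not independent, and the rate over all features was not computed, so an excess was not tested. Of the 10, 4 were on array 1 of the N1N2 plus Lrp6 group: Hmgcs1 was high there at 1.44, while Sc5d at 2.06, Srebf1 at 0.409 and Insig2 at -0.336 were low. Scd1 was low on N1N2 plus Lrp6 array 4, at -1.82. Among N1N2 arrays, Nsdhl was high on array 3 at 0.256, Srebf1 was high on array 5 at 1.89, and Acly was low on array 1 at -0.418. Among control arrays, Fdps was low on array 4 at -0.0676 and Cyp51 was low on array 1 at 0.351. The cause was not tested.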

How the results depend on the processing

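The 3 comparisons were refitted under 25 (N1N2 against control), 24 and 24 alternatives, 1 of them, leaving out spots with an outlying local background, chosen after seeing the data. No called member changed sign under them. In N1N2 against control the calls over all features went to 1252 with median centring, 772 with scale normalization, 109 with slide as a fixed block and 6249 with array weights, and from 1546 to 2812 without 1 array. Members higher numbered 2 without background subtraction, with flagged spots kept, with only the 2 groups or with slide as a random block, 3 with array weights, and 0 with median centring, the scanner's ratio, probe means, the fixed slide block or outlying backgrounds left out. Members lower numbered 1 with flagged spots kept or median centring and 0 with scale normalization or the fixed slide block. Without 1 array these were 0 to 2 higher and 1 to 3 lower. The members' median was -0.0821 with median centring, against -0.0579 over all features, and 0.05 to 0.16 without 1 array. Calls were 70.6% higher with flagged spots kept and 71.6% with the fixed slide block.

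In N1N2 plus Lrp6 against N1N2 the calls went to 2329 with flagged spots kept, 1105 with scale normalization and 7041 with slide as a random block (correlation -0.182), and from 2515 to 4743 without 1 array. Members higher numbered 1 without background subtraction or with outlying backgrounds left out, and 0 with flagged spots kept, scale normalization, the scanner's ratio, no filter or only the 2 groups. Members lower numbered 2 without background subtraction or with the scanner's ratio, 0 with scale normalization and 3 with the random slide block. Without 1 array these were 0 to 2 in each direction. The members' median was 0.0759 with median centring, against 0.0141 over all features, and -0.17 to -0.04 without 1 array. In N1N2 plus Lrp6 against control the calls were 49 with flagged spots kept, 30 with median centring, 17 with scale normalization, 142 with the scanner's ratio, 50 with only the 2 groups, 2915 with the random slide block, 433 with array weights and 26 to 349 without 1 array. Members higher and lower numbered 2 and 3 with the random slide block, and 0 and 1 with array weights. Without 1 array they were 0, and 0 to 1, with medians from -0.08 to 0.03. The cause of these shifts was not tested.

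Deviations of same-numbered arrays from their group means correlated from -0.0113 to 0.626 in N1N2 against control, where 4 of 5 pairs were over 0.1 and 2 of 5 arrays correlated best with their own number, and as low as -0.439 and -0.267 in the other comparisons, so the numbers were not taken as pairs. With the replicate block 2429, 3711 and 44 features were called, Acly was no longer called (adjusted p = 0.0721) and Sqle was (0.0381) in N1N2 against control, and members higher numbered 0 in N1N2 plus Lrp6 against N1N2. Signal over background limits the N1N2 plus Lrp6 arrays most, with 57.2% of spots well above background on array 1.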
